A study of Mus musculus with 34 samples.

Results

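The cortex of untreated WT CON mice was compared with their hippocampus. The libraries were chosen by their group labels, as the 3 libraries labelled cortex (mice 34, 35 and 36) and the 4 labelled hippocampus (mice 33, 34, 35 and 36), which are 7 of the 34 libraries of the series. WT CON mice were male C57BL/6 mice that received no irradiation, no bone marrow transplant and no CSF1R inhibitor, and their treatment label is Vehicle. The labels give no age. The study states ages for its mice in general and for the irradiation, which was done in young adult mice many months before dissection. It states no age at dissection for WT CON mice by themselves. Each library holds bulk RNA of 1 region dissected from 1 flash-frozen brain. The number in a label was taken as that of the mouse, so that mice 34, 35 and 36 gave both regions and mouse 33 only a hippocampus. The same 2 regions from 2 other groups served as a second look at the contrast. GFP-BM CON mice (4 cortex and 4 hippocampus libraries) were irradiated with 1000 cGy and transplanted with GFP-expressing bone marrow from CAG-EGFP donors. GFP-BM REPOP mice (4 and 4) were treated likewise and 3.5 months after irradiation were given PLX3397, a CSF1R inhibitor, for 14 days at 600 ppm, with a recovery of 6 months. Gene levels are FPKM, which are scaled to gene length and to the reads of the library, and the WT CON libraries of both regions rest on 18881083 to 25571445 reads each. Because the tissue is bulk, fewer cells of a type and less RNA per cell cannot be told apart in any value given here.

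The neocortex is a layered sheet in which upper-layer neurons connect cortical areas with each other and deep-layer neurons send axons out of the cortex. The hippocampus is a simpler fold of cortex at its medial edge, in which the dentate gyrus, CA3, CA2 and CA1 are joined in sequence by excitatory synapses. It is known for its part in memory and for the birth of granule neurons in the adult dentate gyrus. Both regions hold the same broad classes of excitatory neurons, GABAergic interneurons and glia. They differ in transcription factors, in receptors and channels, and in genes that mark a single layer or field.

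The library labelled hippocampus of mouse 34 went against its label. *C1ql2* (Entrez 226359) (chromosome 1, 120340582 to 120343174, plus strand, GRCm38, GENCODE M21), a secreted synaptic organiser of dentate granule cell axons, stood at 68.1, 76.2 and 140.2 FPKM in the hippocampus libraries of mice 33, 35 and 36 but at 1.26 FPKM in that of mouse 34, against 1.37, 4.87 and 2.79 FPKM in the cortex. *Lct* (Entrez 226413), a lactase gene with high levels in the dentate gyrus, stood at 11.2, 11.9 and 15.5 FPKM in the other 3 libraries and at 0.158 FPKM in that of mouse 34. The library of mouse 34 thus lacked these dentate genes. It held genes of the olfactory bulb instead, with *Cdhr1* (Entrez 170677), a cadherin of mitral and tufted cells, at 88.1 FPKM against 5.36, 9.29 and 5.26 FPKM in the other 3 hippocampus libraries and 1.7, 0.646 and 1.49 FPKM in the cortex. *S100a5* (Entrez 20199) and *Omp* (Entrez 18378), genes of olfactory sensory neurons whose axons end in the bulb, stood at 92.7 and 45.5 FPKM there and at no more than 0.607 and 0.502 FPKM in the other 3. In the cortex *S100a5* was at 6.23, 0 and 0.475 FPKM in mice 34, 35 and 36. Over the 10 olfactory bulb genes, a list drawn up after these values were seen, the summed level was 34.4, 693, 82.1 and 18 FPKM in the hippocampus libraries of mice 33, 34, 35 and 36 and 36.9, 21.5 and 24.9 FPKM in the cortex libraries of mice 34, 35 and 36. The counts below are therefore given with and without the library of mouse 34.

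The other hippocampus libraries differed in the levels of genes of neighbouring tissues. The 14 choroid plexus genes summed to 7178, 77, 909.8 and 119 FPKM in the hippocampus libraries of mice 33 to 36 and 593, 541 and 545 FPKM in the cortex. The defining gene *Ttr* (Entrez 22139), a thyroid hormone carrier, was at 6324, 17.1, 740.0 and 70.5 FPKM in the hippocampus libraries. The 14 genes of striatal medium spiny neurons summed to 587, 908, 809 and 133 FPKM in the hippocampus and 815, 447 and 482 FPKM in the cortex. *Drd1* (Entrez 13488), the dopamine D1 receptor, stood at 10.7, 16.9, 17.9 and 1.2 and 15.8, 9.27 and 9.54 FPKM. Choroid plexus genes thus stood highest in the library of mouse 33, and striatal genes were at the level of the cortex or above in all but that of mouse 36, which also had the highest summed level of dentate genes. The summed level of the 14 dentate gyrus genes was 138, 66.4, 215 and 270.0 FPKM in the hippocampus libraries of mice 33 to 36, against 88.6, 82.5 and 91.7 FPKM in the cortex. None of the 11 tested choroid plexus genes passed the test between the regions, and of the 14 striatal genes only *Pdyn*, which encodes prodynorphin, passed, with higher levels in the hippocampus. For GFP-BM CON mice 13 of the 14, with *Pdyn* (0.91, limma-trend adjusted p = 0.00025), were higher in the cortex, against 17.2% of all genes. GFP-BM REPOP mice had 0 called, or 13 in the cortex without the hippocampus libraries of mice 1 and 4, against 22.6%. *Pdyn* differed there by 0.72 (adjusted p = 0.025). In WT CON mice, in the order used above, the 10 ependymal genes summed to 122, 31.1, 42.4 and 13.2 FPKM in the hippocampus and 18.1, 12.4 and 25 FPKM in the cortex. The 13 meningeal fibroblast genes summed to 340.1, 200.1, 74.4 and 75.1 and 91.9, 67.9 and 85.4 FPKM. The 4 red blood cell genes summed to 589, 193, 234 and 548 and 163, 308 and 578 FPKM, and the 11 thalamic genes to 46.3, 31.8, 32.8 and 79.5 and 30.1, 26.1 and 38.9 FPKM. Ependymal and meningeal genes were thus highest in the library of mouse 33, while red blood cell and thalamic genes overlapped between the regions. The part of these tissues in the differences below was not tested beyond the values without single libraries.

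**Figure D1:**
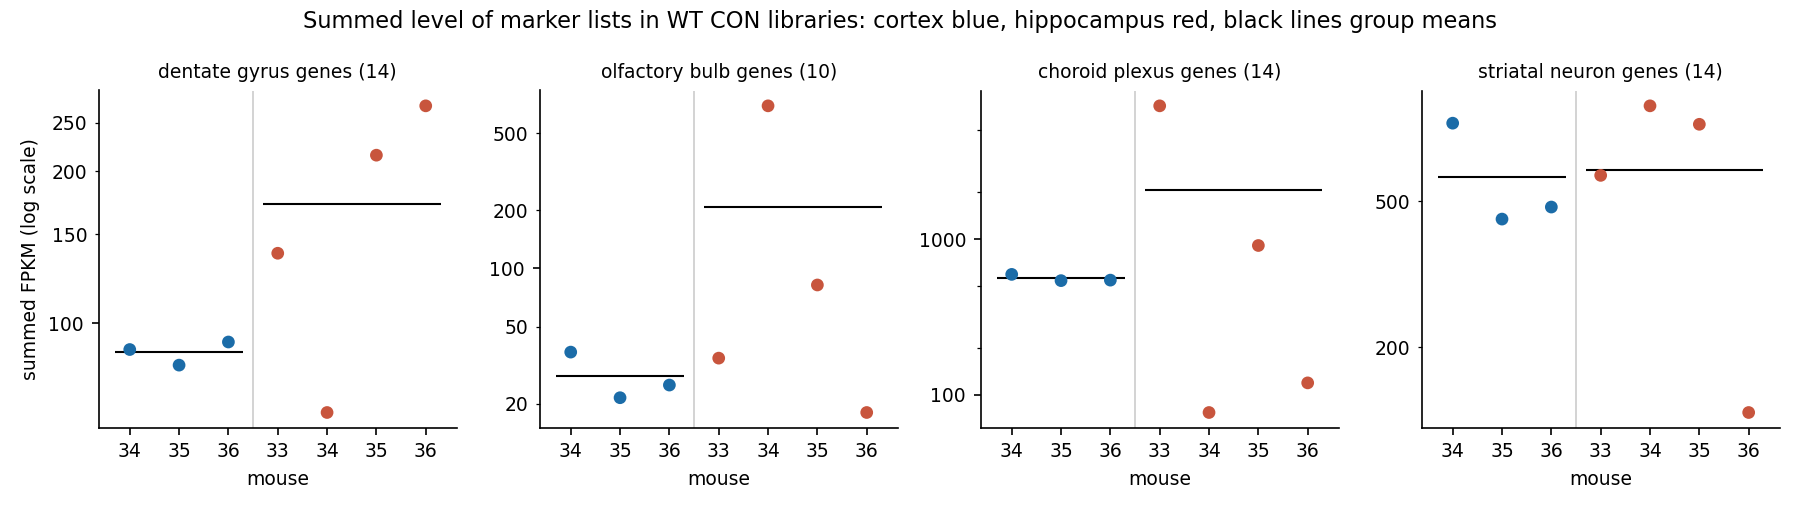
Summed FPKM (log scale) of the dentate gyrus, olfactory bulb, choroid plexus and striatal neuron lists in the 3 WT CON cortex (blue) and 4 WT CON hippocampus (red) libraries, by mouse, with group means as black lines. The hippocampus library of mouse 34 has the lowest dentate level and the highest olfactory bulb level of the 7, and that of mouse 33 the highest choroid plexus level.

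The regions also differed in how strongly GC-rich genes were represented. A GC measure was taken as the median log2 level of 1287 GC-rich genes (at least 58.2% GC) minus the median of 1287 GC-poor genes (at most 41.8%). It was 0.56, 0.98 and 0.52 in the cortex libraries of mice 34, 35 and 36, and 2.92, 2.24, 1.39 and 2.22 in the hippocampus libraries of mice 33, 34, 35 and 36. The regions did not overlap (mean difference -1.51, exact permutation test, two-sided p = 0.057, which is the smallest that 3 against 4 libraries allow). The hippocampus stood higher in the other groups too, by 0.70 in GFP-BM CON mice (4 against 4, exact permutation test, p = 0.029, the smallest possible) and by 1.15 in GFP-BM REPOP mice (4 against 4, exact permutation test, p = 0.029). Genes higher in the cortex had a median GC content of 43.1% and a median longest transcript of 4876 bases, and those higher in the hippocampus 54.4% and 3032 bases. Region and the GC composition of the libraries cannot be told apart in this design. A second set of values is therefore given for the main results, in which each library was corrected for the GC content and length of its genes. Values said to be after correction also leave out the hippocampus library of mouse 34, and those with the correction alone keep all 7 libraries.

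**Figure D2:**
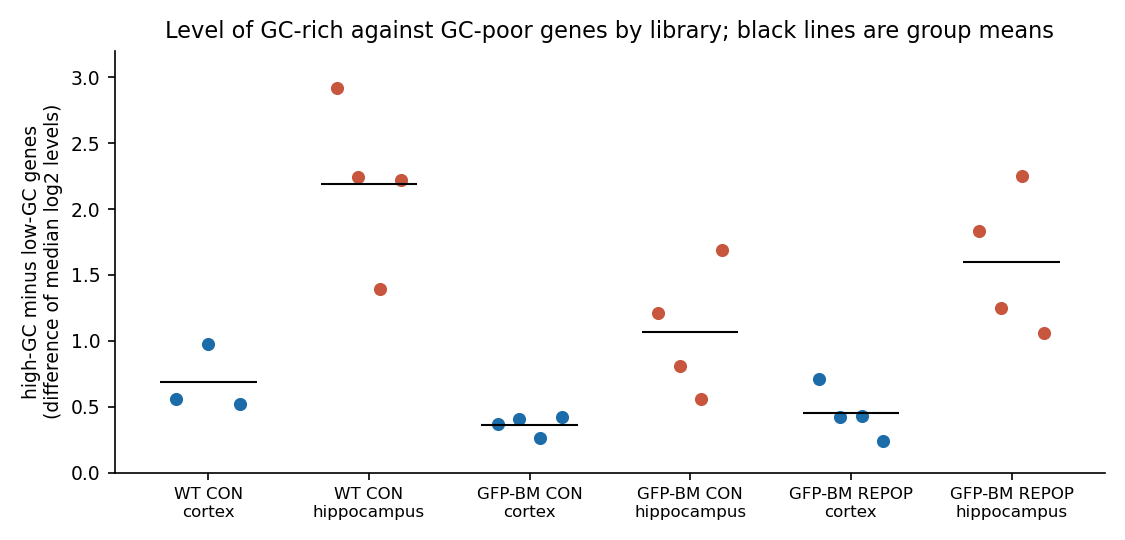
Difference between the median log2 level of GC-rich and GC-poor genes (vertical axis) in each cortex (blue) and hippocampus (red) library of the 3 groups, with group means as black lines. All WT CON cortex libraries lie between 0.52 and 0.98, and all WT CON hippocampus libraries between 1.39 and 2.92.

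Of 13783 genes tested, 3177 (23.1%) differed between the regions, 2073 (15.0%) with higher levels in the cortex and 1104 (8.01%) with higher levels in the hippocampus (limma-trend, two-sided, Benjamini-Hochberg adjusted p under 0.05). The 3 cortex and 4 hippocampus libraries did not overlap for 5994 genes (43.5%), of which 3127 (22.7%) were higher in the cortex and 2867 (20.8%) higher in the hippocampus. With quantile normalisation the split was 2045 and 2404, so that the share of calls higher in the cortex depended on the scaling. Without the library of mouse 34, 1579 genes (11.5%) were higher in the cortex and 932 (6.76%) higher in the hippocampus. With values corrected for GC content and length and all libraries kept, 1910 (14.8%) and 968 (7.53%) of 12862 genes passed. With these corrected values and without that library, 1696 (13.2%) and 927 (7.21%) of 12862 genes passed, and 1044 of the 2073 and 271 of the 1104 first calls were among them with the same direction. The correction moved the median log2 difference of all genes from -0.07 to 0.12, so corrected values are read against 0.12. With the mouse as a block, in the 3 mice with both regions, 949 genes (6.89%) were higher in the cortex and 188 (1.36%) higher in the hippocampus. Single cortex libraries decided the count, which was 19 without that of mouse 34 and 14 without that of mouse 36. All 3177 genes kept their direction in both cases, but they had been called with these same libraries, so this is not separate support. The counts for gene lists below are read against these shares.

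Many layer genes of cortical neurons were higher in the cortex of WT CON mice. Of 24 tested layer genes, 11 were higher in the cortex and 0 higher in the hippocampus, against 15.0% and 8.01% of all genes. Their median log2 difference (cortex minus hippocampus) was 0.66, against -0.07 over all genes tested. Without the library of mouse 34 the counts were 10 and 2, and with the GC and length correction as well 10 and 1. The upper layers had 6 of 10 genes called and a median of 1.09, and the deep layers 5 of 14 and 0.40. In GFP-BM CON mice 14 layer genes were higher in the cortex and 1 in the hippocampus, against 17.2% and 9.98% of all genes. GFP-BM REPOP mice had 2 and 0 (14.9% and 2.36%), or 8 and 2 without the hippocampus libraries of mice 1 and 4 (22.6% and 16.5%). Of the deep-layer genes 0 were called in GFP-BM REPOP mice, and 1 in each direction without those libraries.

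*Rorb* (Entrez 225998), an orphan nuclear receptor of layer IV neurons, stood at 4.12, 4.55 and 5.79 FPKM in the cortex libraries and at 0.295, 0.439, 0.619 and 0.498 FPKM in the hippocampus libraries, with no overlap. Its log2 difference was 3.15 (standard error 0.27, limma-trend adjusted p = 0.0036), and 1.92 with the GC and length correction and without the library of mouse 34 (adjusted p = 0.0057). *Lamp5* (Entrez 76161), a membrane protein of upper-layer neurons and of one interneuron class, measured 93.7, 104 and 103 FPKM in the cortex and 34.8, 36.7, 26.9 and 34.3 FPKM in the hippocampus. The lowest cortex library stood well above the highest hippocampus library, and the log2 difference was 1.6 (adjusted p = 0.0026) in all libraries and 2.04 (adjusted p = 0.0011) after correction. *Rspo1* (Entrez 192199), a secreted enhancer of Wnt signalling, was at 5.99, 6.35 and 7.01 FPKM in the cortex and at 2.13, 1.91, 1.96 and 0.968 FPKM in the hippocampus (log2 difference 1.88, adjusted p = 0.0093). *Cux2* (Entrez 13048), a homeodomain factor of upper-layer neurons, was higher in the cortex by 1.4 (adjusted p = 0.01). Its relative *Cux1*, with 11, 12.7 and 12.8 FPKM against 8.82, 14.3, 9.07 and 5.92 FPKM, overlapped between the regions (log2 difference 0.41, adjusted p = 0.27). Among deep-layer genes, *Nr4a2* (Entrez 18227), an orphan nuclear receptor of layer VI and subplate neurons, was higher in the cortex by 1.48 (adjusted p = 0.0092). *Cplx3* (Entrez 235415), a complexin of subplate neurons, was higher by 1.35 (adjusted p = 0.017). *Rprm*, a cell cycle inhibitor used as a marker of layer VI, was higher by 0.64 (adjusted p = 0.01). In GFP-BM CON mice *Cplx3* (1.39, limma-trend adjusted p = 0.0077) and *Rprm* (1.21, adjusted p = 0.0016) passed, and *Nr4a2* did not (0.66, adjusted p = 0.1). In GFP-BM REPOP mice none of them passed, with or without the hippocampus libraries of mice 1 and 4 (smallest adjusted p = 0.19). *Bcl11b* (0.15, adjusted p = 0.78), *Tle4* (0.15, adjusted p = 0.5) and *Pcp4* (0.08, adjusted p = 0.79), which also label hippocampal or striatal neurons, did not pass. Of the genes of layer V output neurons, *Etv1*, an ETS factor, was higher in the cortex by 1.06 (adjusted p = 0.013) but at -0.14 with the correction alone (adjusted p = 0.79). The transcription factor *Fezf2* was at 14.9, 22.9 and 18.5 FPKM against 18.2, 7.07, 7.14 and 10.8 FPKM (adjusted p = 0.092).

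Among the 10 cortical transcription factors, 4 were higher in the cortex and 0 higher in the hippocampus, and without the library of mouse 34 4 and 1. *Mef2c* (Entrez 17260) (chromosome 13, 83504034 to 83667080, plus strand), a factor that shapes synapse number in excitatory neurons, was at 101, 101 and 104 FPKM in the cortex libraries (102 ± 2.01, SD, n = 3) and at 4.45, 13, 25.9 and 8.08 FPKM in the hippocampus libraries (12.9 ± 9.36, SD, n = 4). It was close in all 3 cortex libraries and spread widely among the 4 hippocampus libraries, without overlap. Its log2 difference was 3.27 (standard error 0.51, adjusted p = 0.01), and 2.3 after correction (adjusted p = 0.012). *Tbr1* (Entrez 21375), a T-box factor of deep-layer neurons, was higher in the cortex by 1.3 (adjusted p = 0.0092). *Pou3f2* (Entrez 18992), a POU factor of upper-layer neurons, stood at 4.95, 4.09 and 5.8 FPKM in the cortex and 0.562, 0.821, 1.51 and 0.503 FPKM in the hippocampus, with no overlap (log2 difference 2.51, adjusted p = 0.0093, and 1.97 after correction, adjusted p = 0.012). *Neurod6*, *Bhlhe22* and *Lmo3*, which are shared with hippocampal pyramidal neurons, did not pass with all libraries. *Lmo3* was the factor called higher in the hippocampus without that of mouse 34 (-0.76, adjusted p = 0.03). *Neurod6* stood at 17.3, 5.62, 43.1 and 59.4 FPKM in the hippocampus libraries and 35.6, 31.7 and 30.6 FPKM in the cortex, lowest in the library of mouse 34, and its log2 difference was 0.54 with and -0.12 without that library.

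**Figure D3:**
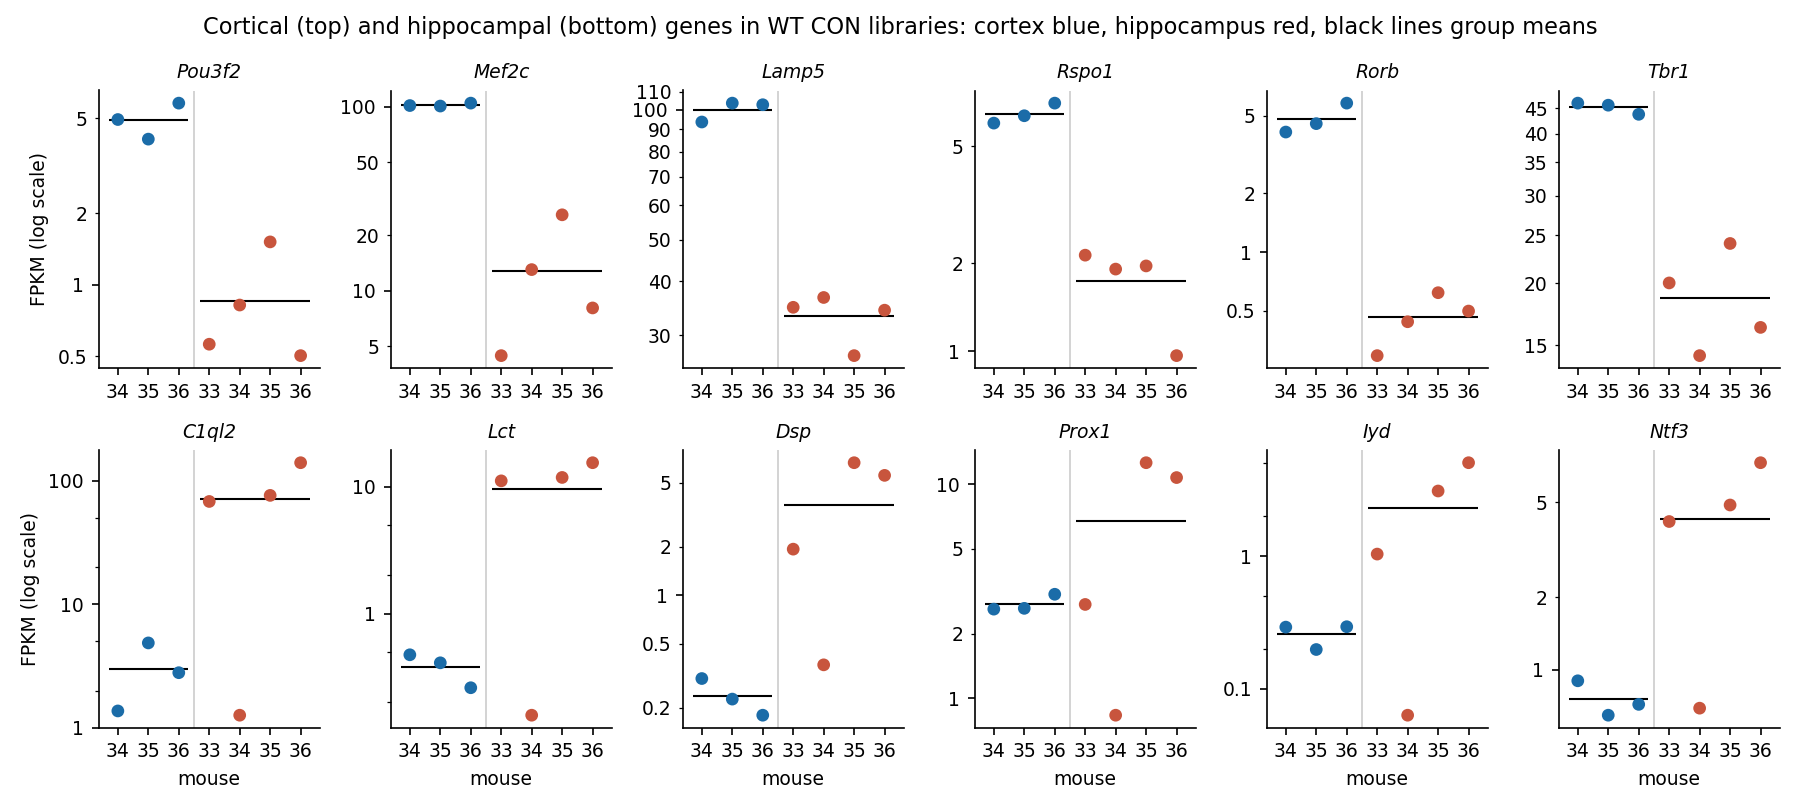
FPKM (log scales) of 6 cortical genes (top) and 6 hippocampal genes (bottom) in each WT CON library by mouse, cortex in blue and hippocampus in red, with group means as black lines. The cortical genes separate all libraries by region, whereas the hippocampus library of mouse 34 lies below all cortex libraries for *C1ql2*, *Lct*, *Prox1* and *Iyd*, among them for *Ntf3* and just above them for *Dsp*.

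Genes of the hippocampal fields depended on the library of mouse 34. Of 46 tested subfield genes, 4 were higher in the hippocampus and 3 higher in the cortex with all libraries. Without that library 14 were higher in the hippocampus and 3 in the cortex, against 6.76% and 11.5% of all genes, and the median log2 difference was -0.39. The library was set apart for its low dentate genes. A rise in this count, or in the differences of such genes, on leaving it out is therefore no separate support. After the GC and length correction as well, 10 were higher in the hippocampus and 4 in the cortex. With the correction alone the counts were 5 and 4. In GFP-BM CON mice, whose hippocampus libraries all held dentate genes, they were 20 and 8, against 9.98% and 17.2% of all genes. In GFP-BM REPOP mice, where 2 hippocampus libraries (mice 1 and 4) went against their label as described below, 1 was higher in the hippocampus and 5 in the cortex, against 2.36% and 14.9% of all genes. Without those libraries the counts were 14 and 11, against 16.5% and 22.6%. They too were picked in part by a low *C1ql2*.

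For the dentate gyrus, *C1ql2* had the largest difference. With all libraries its log2 difference was -3.52 (standard error 1.5, adjusted p = 0.12), and without the library of mouse 34 it was -5.03 (adjusted p = 0.0075). *Lct* followed with -3.36 (adjusted p = 0.11) and -4.77 (adjusted p = 0.0055). The library of mouse 34 was left out after low values of these very genes were seen. Their adjusted p without it is therefore not a fair test. *Dsp* (Entrez 109620), a desmosome protein of granule cells, was the only dentate gene to pass with all 7 libraries, at 0.304, 0.226 and 0.18 FPKM in the cortex and 1.94, 0.37, 6.68 and 5.57 FPKM in the hippocampus (log2 difference -2.89, adjusted p = 0.049). *Tdo2* (Entrez 56720), a tryptophan-degrading enzyme of mature granule cells, was at 1.98, 0.178, 3.05 and 6.06 FPKM in the hippocampus libraries against 0.494, 0.372 and 0.427 FPKM in the cortex, and passed without that library (log2 difference -2.7, adjusted p = 0.018). *Prox1* (Entrez 19130), the factor that sets granule cell fate, stood at 2.75, 0.834, 12.6 and 10.8 FPKM in the hippocampus and 2.61, 2.63 and 3.07 FPKM in the cortex. The libraries of mice 35 and 36 were above the cortex, that of mouse 33 within its range and that of mouse 34 below it. Its log2 difference was -0.61 (adjusted p = 0.61) with all libraries, -1.36 (adjusted p = 0.12) without that of mouse 34 and -2.03 (adjusted p = 0.018) when the correction was added. In GFP-BM CON mice it was -1.92 (adjusted p = 0.0033). In GFP-BM REPOP mice it was 0.18 (adjusted p = 0.81), or -0.47 (adjusted p = 0.34) without the hippocampus libraries of mice 1 and 4. *Calb1*, a calcium buffer of granule and CA1 cells but also of upper-layer cortical neurons, had a log2 difference of 0.19 (adjusted p = 0.48) with all libraries, which turned to -1.02 (adjusted p = 0.0057) with the correction and without the library of mouse 34.

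In CA3, *Iyd* (Entrez 70337), a deiodinase, stood at 1.04, 0.0631, 3.1 and 5.06 FPKM in the hippocampus and 0.291, 0.197 and 0.293 FPKM in the cortex. Its log2 difference was -1.89 (adjusted p = 0.22) with and -2.89 (adjusted p = 0.025) without the library of mouse 34. *Bok* (Entrez 51800), a member of the BCL-2 family, measured 50.9, 21.5, 72.6 and 139 FPKM against 29.2, 31 and 27.6 FPKM in the cortex (log2 difference without that library -1.45, adjusted p = 0.034). *Grik4*, the kainate receptor subunit of mossy fibre synapses on CA3, measured 10.0, 3.84, 17.1 and 36.5 FPKM against 8.63, 7.51 and 7.77 FPKM, and did not pass with that library (-0.64, adjusted p = 0.48) or without it (-1.2, adjusted p = 0.089). Highest of the 4 for all 3 genes was the library of mouse 36. In CA2, *Amigo2* (Entrez 105827), an adhesion protein, was higher in the hippocampus with all libraries, at 12.1, 10.6, 4.93 and 7.95 FPKM against 4.05, 2.07 and 2.63 FPKM (log2 difference -1.55, adjusted p = 0.021). *Ntf3* (Entrez 18205), the neurotrophin-3 gene, was at 4.15, 0.691, 4.86 and 7.29 FPKM against 0.898, 0.645 and 0.716 FPKM, and passed without the library of mouse 34 (log2 difference -2.67, adjusted p = 0.0092). *Rgs14* (Entrez 51791), a regulator of G proteins that restrains plasticity in CA2, passed without it as well (-0.83, adjusted p = 0.0095). *Necab2*, a calcium-binding protein, was the other CA2 gene to pass with all libraries (-1.01, adjusted p = 0.012).

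No CA1 gene was called higher in the hippocampus. None of the 10 passed in that direction with or without the library of mouse 34 (limma-trend), where 8.01% and 6.76% of all genes did, while *Satb1* and *Ndst3*, which cortical neurons also use, were higher in the cortex. *Fibcd1* (Entrez 98970), a membrane receptor that marks dorsal CA1, stood at 24.7, 10.3, 5.55 and 5.59 FPKM in the hippocampus libraries of mice 33 to 36 and 4.98, 5.39 and 7.17 FPKM in the cortex (adjusted p = 0.32). *Spink8*, a protease inhibitor of CA1, stood at 14, 2.0, 1.61 and 7.76 FPKM and 4.35, 3.96 and 4.17 FPKM (adjusted p = 0.95). In both cases the library of mouse 33 was the highest, and that of mouse 35 lay within or below the range of the cortex. In GFP-BM CON mice *Spink8* differed by -2.93 (adjusted p = 0.0055) and *Fibcd1* by -1.98 (adjusted p = 0.043), both higher in the hippocampus. Of the 10 CA1 genes, 3 were higher in the hippocampus there and 2 (*Satb1* and *Ndst3*) higher in the cortex, against 9.98% and 17.2% of all genes. In GFP-BM REPOP mice *Spink8* differed by -1.5 (adjusted p = 0.23) and *Fibcd1* by -1.69 (adjusted p = 0.09), and without the libraries of mice 1 and 4 by -2.98 (adjusted p = 0.0013) and -2.84 (adjusted p = 0.003). Of 5 tested hilus genes, *Calb2*, the calretinin gene of mossy cells and of many interneurons and olfactory bulb cells, was higher in the hippocampus, at 33.2, 227, 28.3 and 45.6 FPKM against 7.12, 9.84 and 7.66 FPKM. Its level was highest in the library of mouse 34, and its log2 difference was -2.77 (adjusted p = 0.026) with and -2.09 (adjusted p = 0.0092) without it.

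Of 16 tested transcription factors of the hippocampus and its development, 0 were higher in the hippocampus and 3 higher in the cortex (*Klf7*, *Nfia* and *Nfib*), and without the library of mouse 34 0 and 1. With the correction alone the counts were 1 and 2, and after correction 2 and 2. GFP-BM CON mice had 7 in the hippocampus and 3 in the cortex, against 9.98% and 17.2% of all genes. For GFP-BM REPOP mice they were 0 and 4 (2.36% and 14.9%). Leaving out the hippocampus libraries of mice 1 and 4 gave 2 and 5 (16.5% and 22.6%). *Nfia* and *Nfib*, nuclear factor I genes of neurons and glia, had differences of 1.38 and 1.82, which were 0.27 and 0.81 with the correction alone and 0.17 and 0.63 after correction, and neither passed in these sets. *Zbtb20*, a repressor that marks hippocampal pyramidal neurons, was under the filter, at no more than 0.721 FPKM in any of the 7 libraries.

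GABAergic interneurons use shared genes for making and storing GABA and are told apart by calcium-binding proteins and peptides. Of 37 tested interneuron genes, 4 were higher in the cortex and 2 higher in the hippocampus (16.2% called, against 23.1% of all genes). Without the library of mouse 34 the counts were the same, against 11.5% and 6.76% of all genes. With the correction alone they were 8 and 3, against 14.8% and 7.53%. Both changes gave 12 and 2, against 13.2% and 7.21%. *Vip* (Entrez 22353), the peptide of a disinhibitory class, stood at 22.6, 22.1 and 21.8 FPKM in the cortex and 6.04, 12.2, 6.47 and 5.13 FPKM in the hippocampus, without overlap (log2 difference 1.64, adjusted p = 0.011). With the correction alone it was 0.75 (adjusted p = 0.12), and 1.04 after correction (adjusted p = 0.016). *Erbb4* (Entrez 13869), the neuregulin receptor of interneurons, was higher in the cortex by 3.04 (adjusted p = 0.01) and by 1.64 after correction (adjusted p = 0.018). *Nos1* (Entrez 18125), neuronal nitric oxide synthase, was higher in the hippocampus, at 13, 23.2, 15.1 and 19.5 FPKM against 7.44, 6.58 and 6.86 FPKM (log2 difference -1.3, adjusted p = 0.01, and -1.39 after correction). *Pvalb*, the parvalbumin of fast-spiking cells, was at 64.2, 78.6 and 84.7 FPKM against 49.9, 10.2, 18.1 and 46.1 FPKM, and missed the threshold (log2 difference 1.56, adjusted p = 0.069). *Gad1*, which makes GABA, was at 124, 123 and 124 FPKM in the cortex and 139, 423, 171 and 113 FPKM in the hippocampus (adjusted p = 0.32), with the highest value in the library of mouse 34. *Sst*, the peptide of a dendrite-targeting class, measured 303, 335 and 322 and 309, 220.2, 297 and 253 FPKM (log2 difference 0.26, adjusted p = 0.19).

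Fast excitation runs through AMPA and NMDA receptors, which are assembled from a few subunits each. Of 24 tested glutamate receptor genes, 7 were higher in the cortex and 3 higher in the hippocampus, and without the library of mouse 34 7 and 1. The AMPA subunits split by direction. *Gria1* (Entrez 14799) (chromosome 11, 57011387 to 57330244, plus strand) stood at 146, 110.4, 155 and 211 FPKM in the hippocampus and 79.9, 70.8 and 72.4 FPKM in the cortex, without overlap (log2 difference -1.03, standard error 0.20, adjusted p = 0.015). After correction the difference was -1.24 (adjusted p = 0.0057). *Gria3* (Entrez 53623) went the other way, with 39.1, 20.9 and 43.6 FPKM in the cortex and 1.88, 3.23, 9.3 and 4.09 FPKM in the hippocampus (log2 difference 3.04, adjusted p = 0.011, and 1.93 after correction, adjusted p = 0.017). *Gria4* was higher in the cortex by 2.49 (adjusted p = 0.013). *Gria2*, the subunit that keeps calcium out of the channel, was higher in the cortex by 2.55 (adjusted p = 0.022), but spread from 13.9 to 64.2 FPKM among the cortex libraries. Its difference after correction was 0.72 (adjusted p = 0.22). Of the NMDA subunits, *Grin1*, present in every NMDA receptor, measured 111, 115 and 113 FPKM and 117, 119, 118 and 138 FPKM (log2 difference -0.12, adjusted p = 0.34). *Grin2b* was higher in the cortex by 2.51 (adjusted p = 0.02) and *Grin2c* higher in the hippocampus, at -0.52 (adjusted p = 0.047), the latter lost without the library of mouse 34 (adjusted p = 0.053).

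GABA-A receptors are chloride channels, through which most fast inhibition runs. Of 12 tested subunit genes, 8 were higher in the cortex and 0 higher in the hippocampus (7 and 0 without the library of mouse 34, 5 and 0 with the correction too). *Gabrb2* (Entrez 14401) (chromosome 11, 42419757 to 42629028, plus strand) led, at 35.2, 15.5 and 41.1 FPKM against 1.34, 1.7, 3.25 and 2.74 FPKM (log2 difference 3.67, adjusted p = 0.0065, and 3.19 after correction). *Gabra5*, the extrasynaptic subunit known from hippocampal pyramidal cells, measured 29, 30.1, 52.4 and 70.6 FPKM in the hippocampus and 22.5, 25.4 and 24.2 FPKM in the cortex (log2 difference -0.82, adjusted p = 0.087).

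Among 28 tested monoamine and acetylcholine receptor genes, 5 (17.9%) were higher in the cortex and 0 higher in the hippocampus. The cortex share was near the 15.0% of all genes, of which 8.01% were higher in the hippocampus. Without the library of mouse 34 the counts were 6 and 1, against 11.5% and 6.76% of all genes. *Htr2a* (Entrez 15558) (chromosome 14, 74640840 to 74709494, plus strand), the serotonin receptor of layer V pyramidal neurons through which psychedelic drugs act, stood at 6.96, 4.72 and 6.84 FPKM in the cortex and 0.282, 0.605, 1.47 and 0.183 FPKM in the hippocampus. No hippocampus library came near the cortex, and the log2 difference was 3.39 (adjusted p = 0.011) and 2.55 after correction (adjusted p = 0.018). *Adra1b* (log2 difference 1.45, adjusted p = 0.011) and *Adrb1* (0.96, adjusted p = 0.011), receptors for noradrenaline, and *Chrm2* (2.08, adjusted p = 0.026), a muscarinic receptor, were higher in the cortex as well. All 3 passed after correction, but *Chrm2* did not with the correction alone (1.17, adjusted p = 0.076). *Htr5a* was the fifth, at 0.94 (adjusted p = 0.011). Of 10 corticosteroid genes 1 was higher in the cortex and 1 in the hippocampus, with or without the library of mouse 34. *Nr3c1*, the glucocorticoid receptor, was higher in the cortex, at 21.3, 19.2 and 20.9 FPKM against 1.9, 2.86, 8.68 and 3.5 FPKM (log2 difference 2.47, adjusted p = 0.013). *Fkbp5*, a glucocorticoid-induced chaperone partner of that receptor, was higher in the hippocampus (-0.97, adjusted p = 0.029). *Nr3c2*, the mineralocorticoid receptor known for its hippocampal level, was at 9.18, 7.82, 23.6 and 24.8 FPKM against 10.5, 10.7 and 9.38 FPKM, high in mice 35 and 36 only (log2 difference -0.49, adjusted p = 0.4). In GFP-BM CON mice its difference was -1.71 (adjusted p = 0.0015). In GFP-BM REPOP mice it was -0.49 (adjusted p = 0.33), or -0.99 (adjusted p = 0.0085) without the libraries of mice 1 and 4.

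Of 37 tested potassium and HCN channel genes, 9 were higher in the cortex and 1 higher in the hippocampus, and without the library of mouse 34 9 and 2. *Kcnh7* (3.04, adjusted p = 0.0093) and *Kcnh5* (1.95, adjusted p = 0.014), channels of the ether-a-go-go family, were higher in the cortex and passed after correction too. *Kcng1*, a silent subunit that modifies other channels, was higher in the hippocampus, at 14, 13.6, 20.3 and 16.8 FPKM against 8.04, 8.33 and 7.36 FPKM (log2 difference -1.0, adjusted p = 0.01). Of 17 calcium-binding protein genes, 4 were higher in the cortex and 2 higher in the hippocampus (5 and 4 without the library of mouse 34). *Necab1* (Entrez 69352) and *Necab2* (Entrez 117148), a pair of related neuronal calcium-binding proteins, lay in opposite directions. *Necab1* stood at 15, 6.28 and 19.3 FPKM in the cortex and 0.46, 0.79, 1.16 and 0.832 FPKM in the hippocampus (log2 difference 3.82, adjusted p = 0.0064). *Necab2* stood at 31.8, 25.7 and 25.5 FPKM and 64.4, 66.8, 44.3 and 49.3 FPKM (log2 difference -1.01, adjusted p = 0.012). After correction *Necab1* was higher in the cortex by 2.82 (adjusted p = 0.0057), and *Necab2* had a difference of -0.45 (adjusted p = 0.062).

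Calls among genes of axon guidance and adhesion went in both directions, as they did over all genes (15.0% higher in the cortex and 8.01% in the hippocampus). Of the tested Eph and ephrin genes 22.2% were called, of the cadherins 33.3% and of the Wnt genes 23.3%, against 23.1% of all genes. Of 18 tested Eph receptors and ephrins, 3 were higher in the cortex and 1 higher in the hippocampus (2 and 2 without the library of mouse 34). *Efna5* (Entrez 13640), a repulsive ephrin ligand, stood at 7.05, 7.59 and 7.89 FPKM in the cortex and 0.909, 1.98, 1.78 and 0.60 FPKM in the hippocampus (log2 difference 2.56, adjusted p = 0.0098, and 2.51 after correction). *Efnb3* (Entrez 13643), a ligand of the other class, was higher in the hippocampus (log2 difference -0.79, adjusted p = 0.0098). Of 15 cadherins, 4 were higher in the cortex and 1 higher in the hippocampus (4 and 2 without that library). Among them were *Cdh6* (2.54, adjusted p = 0.017) and *Cdh7* (2.2, adjusted p = 0.012) in the cortex. Of 30 Wnt genes, 4 were higher in the cortex and 3 higher in the hippocampus (2 and 4 without it). The ligands *Wnt4* (0.66, adjusted p = 0.031) and *Wnt10a* (0.97, adjusted p = 0.021) were higher in the cortex. Of the receptors *Fzd3* was higher in the cortex (2.48, adjusted p = 0.01) and *Fzd7* in the hippocampus (-1.19, adjusted p = 0.02). Of the 6 tested neurotrophin genes 0 passed with all libraries and 1 (*Ntf3*) without that of mouse 34, and *Bdnf*, the neurotrophin of activity-dependent plasticity, was at 4.58, 3.47 and 4.88 FPKM and 1.9, 0.70, 5.63 and 5.2 FPKM, lowest in the library of mouse 34 (adjusted p = 0.43). Of the 6 tested C1q-like organisers *C1ql1* alone passed with all libraries, higher in the hippocampus (-1.02, adjusted p = 0.015), and without that of mouse 34 the counts were 1 in the cortex and 2 in the hippocampus. Of the 6 tested perineuronal net genes *Tnr*, the tenascin that crosslinks the net, was higher in the cortex (1.3, adjusted p = 0.014).

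Immediate early genes are those that neurons switch on within minutes of activity. Of 25 such genes, 6 were higher in the cortex and 1 higher in the hippocampus, against 15.0% and 8.01% of all genes. Without the library of mouse 34 the counts were 8 and 1 (11.5% and 6.76%). GFP-BM CON mice had 9 and 3 (17.2% and 9.98%). In GFP-BM REPOP mice there were 1 and 1 (14.9% and 2.36%), or 1 and 2 without the hippocampus libraries of mice 1 and 4 (22.6% and 16.5%). *Arc* (Entrez 11838), a synaptic regulator of receptor uptake, stood at 73, 122 and 119.6 FPKM in the cortex and 52.7, 69.7, 55.5 and 52.7 FPKM in the hippocampus (log2 difference 0.83, adjusted p = 0.026, and 1.37 after correction). *Jun* (Entrez 16476), an AP-1 factor, was the member higher in the hippocampus, at 33.7, 30.7, 45.1 and 76.4 FPKM against 15.7, 18.6 and 18.4 FPKM (log2 difference -1.31, adjusted p = 0.022). Of 13 tested genes of adult neurogenesis, 2 were higher in the hippocampus and 0 in the cortex (1 and 0 without the library of mouse 34). *Hopx*, of quiescent stem cells and astrocytes, was at 44.3, 24.7, 25.9 and 38.5 FPKM in the hippocampus and 14.6, 15.8 and 15.7 FPKM in the cortex (-1.07, adjusted p = 0.016). *Dcx*, the microtubule protein of newborn neurons, was at 0.128, 2.27, 1.66 and 0.21 FPKM in the hippocampus and 3.82, 2.25 and 4.23 FPKM in the cortex (adjusted p = 0.095). Its level was thus low in the hippocampus libraries of mice 33 and 36 and close to the lowest cortex library in that of mouse 34.

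The glial and vascular lists are read against the same shares of all genes. Of 24 astrocyte genes, 3 were higher in the cortex and 1 higher in the hippocampus (2 and 3 without the library of mouse 34), a share in the cortex near that of all genes (15.0%). *Gfap* (Entrez 14580), the intermediate filament of astrocytes, was the one higher in the hippocampus, at 122, 73.6, 62.9 and 122 FPKM against 35.9, 35.4 and 41.9 FPKM, with no overlap (log2 difference -1.27, adjusted p = 0.015, and -0.93 after correction, adjusted p = 0.022). Of 18 oligodendrocyte genes, 3 were higher in the cortex and 0 in the hippocampus (2 and 0 without it). *Mbp*, a main protein of myelin, had a log2 difference of 0.00 (adjusted p = 1), and of 0.10 after correction. Of 23 microglia genes, 1 was higher in the cortex and 1 in the hippocampus. They were *P2ry12*, a purine receptor of resting microglia (1.73, adjusted p = 0.029), and *Slc2a5*, a sugar transporter (-0.60, adjusted p = 0.042), and neither passed without the library of mouse 34. *Cx3cr1*, the fractalkine receptor, measured 12.1, 10.6 and 10.4 FPKM and 15, 15.3, 12.2 and 13.5 FPKM (log2 difference -0.33, adjusted p = 0.079). Of 20 vascular genes, 2 were higher in the cortex (3 without that library) and 0 in the hippocampus. Of 9 tested precursor genes of the oligodendrocyte line, 1 passed (*C1ql1*), and of 3 tested border macrophage genes 0. Calls in the transplanted mice follow (cortex and hippocampus) for astrocyte, oligodendrocyte, microglia and vascular genes. GFP-BM CON counts were 1 and 10, 0 and 1, 0 and 12, and 0 and 3. Those of GFP-BM REPOP mice were 2 and 2, 0 and 1, 0 and 1, and 3 and 0. They were 2 and 15, 0 and 14, 0 and 11, and 3 and 1 without the hippocampus libraries of mice 1 and 4. In these sets 17.2% and 9.98%, 14.9% and 2.36%, and 22.6% and 16.5% of all genes were called.

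**Figure D4:**
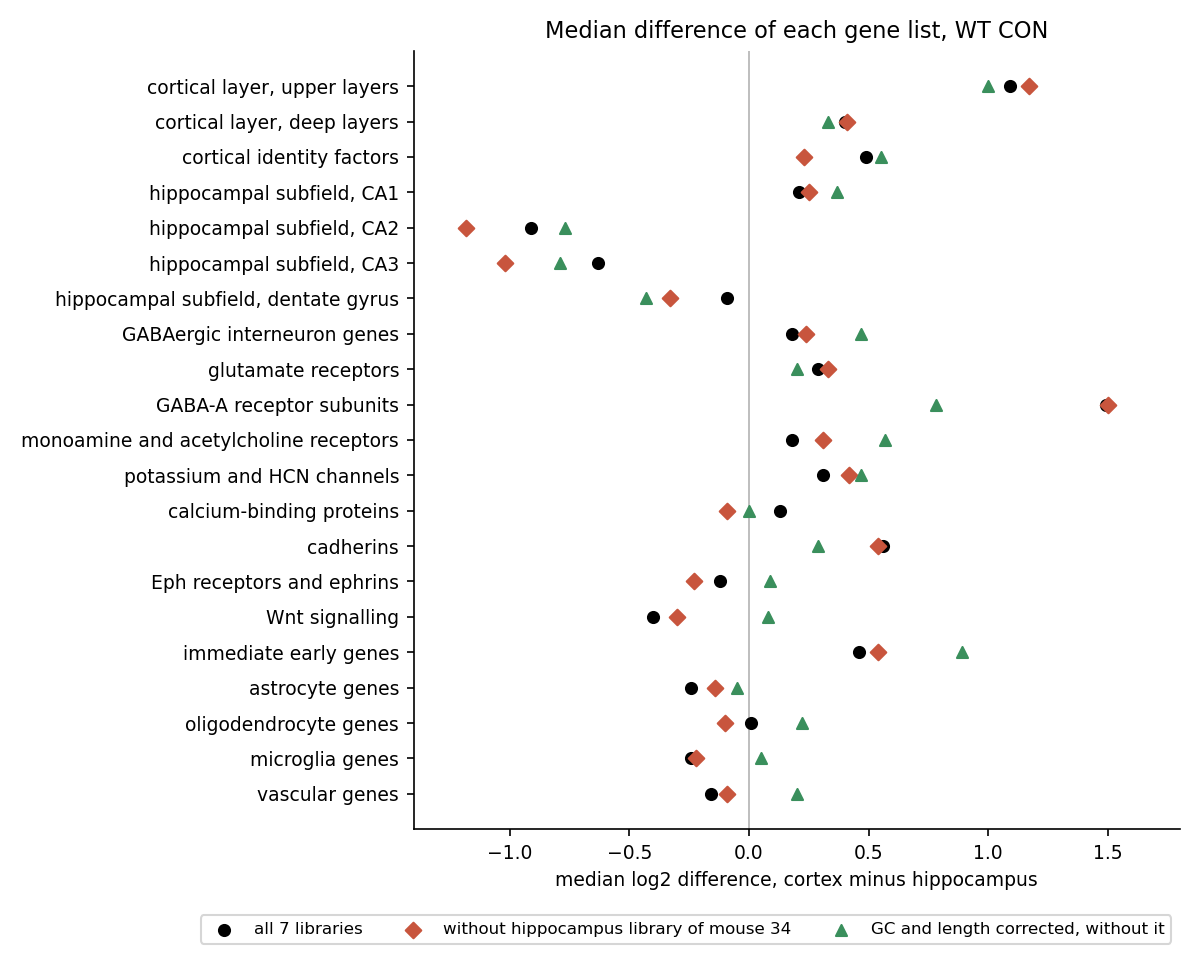
Median log2 difference (cortex minus hippocampus, horizontal axis) of each gene list in WT CON mice with all 7 libraries (black), without the hippocampus library of mouse 34 (red diamonds) and with the GC and length correction as well (green triangles). Of the lists shown, GABA-A subunits have the highest median with all libraries (1.49) and CA2 genes the lowest (-0.91).

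The genes with the largest differences among those called, without overlap and with a mean of at least 5 FPKM in the higher region, were in the cortex *Mir128-1*, *Cdr1*, *Necab1*, *Gabrb2*, *Mir1898*, *Plcb4*, *AF357426*, the unnamed Entrez IDs 100504519 and 100502774, *Htr2a*, *Upf2* and *Tmem196*. *Plcb4* (Entrez 18798), a phospholipase C of G protein signalling, stood at 14.3, 9.99 and 16.7 FPKM in the cortex and 0.705, 1.28, 1.6 and 1.12 FPKM in the hippocampus (log2 difference 3.45, adjusted p = 0.0036, and 2.87 after correction, adjusted p = 0.0023). *Upf2*, a factor of nonsense-mediated RNA decay, was higher by 3.34 (adjusted p = 0.0074), and *Tmem196*, a membrane protein, by 3.33 (adjusted p = 0.01). *Cdr1* (log2 difference 4.04, adjusted p = 0.0063) lies opposite a locus that gives an abundant circular RNA, and where reads are counted without strand the 2 cannot be told apart. *Mir128-1*, *Mir1898* and the snoRNA *AF357426* are short features with no more than 20 reads in any library.

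*Mir128-1* (Entrez 387147) is shown because it headed the ranking on few reads. Its hairpin of 70 bases lies on chromosome 1 at 128202361 to 128202430 (GRCm38, plus strand), within the bounds of *R3hdm1* (128103301 to 128237736, plus strand), and overlaps 0 of the annotated exons of that gene, so it is intronic. The mature sequences below are those of RefSeq (GRCm38.p6), 5′ to 3′, with the seed (bases 2 to 8) in capitals.
mmu-miR-128-1-5p: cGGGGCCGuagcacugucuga
mmu-miR-128-3p: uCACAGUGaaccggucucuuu
The libraries hold reads of long RNA, so they do not measure these mature forms. The hairpin's feature had 10, 3 and 20 reads in the cortex libraries and 1, 0, 0 and 0 in the hippocampus libraries. *R3hdm1* itself had 6295, 4543 and 7754 reads in the cortex and 519, 1132, 1912 and 901 in the hippocampus, and a log2 difference of 2.49 (adjusted p = 0.011).

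In the hippocampus the same rule named *Scgn*, *Cdhr1*, *Lbhd2*, *Calb2*, *Slc29a4*, *Tspan18*, *Homer3*, *Prkcd*, *Npr1*, *Zic1*, *Ptpro* and *Gm17750*. The library of mouse 34 was the highest of all for *Scgn* (1.81, 21.2, 4.43 and 2.24 FPKM in mice 33 to 36), *Cdhr1*, *Lbhd2* (10.7, 26.7, 7.46 and 1.43 FPKM), *Calb2*, *Npr1* (4.53, 10.7, 2.69 and 2.67 FPKM), *Zic1* (23, 28.9, 11.2 and 11.5 FPKM), *Ptpro* (6.49, 40.6, 12.5 and 6.84 FPKM) and *Gm17750* (4.5, 6.68, 5.35 and 5.66 FPKM). Of these *Lbhd2* alone did not pass without it (adjusted p = 0.064). Their GFP-BM CON differences passed for *Npr1* (-1.07, adjusted p = 0.045), *Zic1* (-1.38, 0.021) and *Gm17750* (-1.18, 0.00041). No call was made for *Scgn* (-0.84, adjusted p = 0.35), *Cdhr1* (0.44, 0.53), *Lbhd2* (-1.63, 0.12), *Calb2* (-0.48, 0.62) or *Ptpro* (-0.25, 0.49). *Gm17750* alone passed in GFP-BM REPOP mice (-1.25, adjusted p = 0.011). The other members were lower in the library of mouse 34 than in at least one further hippocampus library. *Slc29a4* (Entrez 243328), a transporter of monoamines, stood at 31.2, 5.52, 14.6 and 25.3 FPKM in the hippocampus and 2.75, 2.65 and 3.09 FPKM in the cortex, with log2 differences of -2.45 (adjusted p = 0.02) with and -2.96 (adjusted p = 0.0075) without the library of mouse 34. *Homer3* (Entrez 26558), a postsynaptic scaffold protein, was at 11.7, 5.07, 18.7 and 42.7 FPKM and 3.12, 2.9 and 3.04 FPKM (-2.26, adjusted p = 0.037). *Tspan18* (Entrez 241556), a tetraspanin, was at 3.24, 1.93, 5.5 and 15.8 FPKM and 0.741, 0.811 and 0.909 FPKM (-2.43, adjusted p = 0.032). *Prkcd* (Entrez 18753), protein kinase C delta, which thalamic neurons also make, was at 29.7, 16.8, 18.7 and 48.9 FPKM and 5.45, 3.8 and 9.07 FPKM (-2.16, adjusted p = 0.015). In GFP-BM CON mice all 4 were higher in the hippocampus too, by differences of -2.65, -2.96, -2.94 and -2.97 (largest adjusted p = 0.00056). In GFP-BM REPOP mice 0 of the 4 passed, with differences of -0.70, -0.92, -1.33 and 0.04 (adjusted p = 0.29, 0.1, 0.093 and 0.98). Without the hippocampus libraries of mice 1 and 4 these were -1.43, -1.38, -1.62 and -0.12 (adjusted p = 0.022, 0.021, 0.066 and 0.92).

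The most abundant genes were encoded by the mitochondrial genome in both regions. *COX1*, a subunit of cytochrome c oxidase, led in both, at 14191, 12088 and 13452 FPKM in the cortex and 10611, 10517, 10408 and 10863 FPKM in the hippocampus (log2 difference 0.32, adjusted p = 0.31). *ATP6* of the ATP synthase and *COX2* followed in the cortex, and *COX3* and *COX2* in the hippocampus. *ATP6* differed most, at 10083, 6985 and 9765 FPKM in the cortex and 2376, 2638, 3199 and 2441 FPKM in the hippocampus (log2 difference 1.74, adjusted p = 0.0072), and by 0.66 after correction (adjusted p = 0.028). *COX2* differed by 1.18 (adjusted p = 0.013) and after correction by 0.31 (adjusted p = 0.17), while *COX3* had a difference of 0.22 (adjusted p = 0.43). These genes are cut from one long precursor, and their differences between the regions ranged from 0.22 to 1.74, with *COX3* at -0.54 under quantile normalisation.

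The settings changed single calls as follows. Of the genes named above as called with all libraries, *Grin2c*, *Lbhd2*, *Nfia*, *Nfib*, *P2ry12*, *Slc2a5* and *Wnt4* did not pass without the hippocampus library of mouse 34, with adjusted p between 0.05 and 0.069 (limma-trend). With the mouse as a block in mice 34, 35 and 36, the genes lost were *Arc*, *C1ql1*, *COX2*, *Calb2*, *Cdh6*, *Cebpd*, *Chrm2*, *Cplx3*, *Dsp*, *Fkbp5*, *Fzd7*, *Gria1*, *Gria2*, *Grin2c*, *Homer3*, *Lbhd2*, *Mir1898*, *Nfia*, *Nfib*, *P2ry12*, *Slc2a5*, *Tnr*, *Wnt10a* and *Wnt4*, with adjusted p between 0.05 and 0.16, and *Fezf2* (0.045) and *Pvalb* (0.046) passed. *Gria1* had a log2 difference of -1.05 in that fit (adjusted p = 0.05), against -1.03 without the block. The blocked counts were 11 in the cortex and 0 in the hippocampus for layer genes, as without the block, but 4 and 0 for GABA-A subunits, 4 and 0 for glutamate receptors, 6 and 1 for potassium and HCN channels, 4 and 1 for immediate early genes, 1 and 1 for Wnt genes, 1 and 1 for astrocyte genes and 1 and 0 for oligodendrocyte genes. After correction for GC content and length without the library of mouse 34, *C1ql1*, *COX2*, *Efnb3*, *Etv1*, *Fkbp5*, *Gria2*, *Grin2c*, *Jun*, *Kcng1*, *Lbhd2*, *Necab2*, *Nfia*, *Nfib*, *P2ry12*, *Pdyn* and *Slc2a5* did not pass. Among those gained there were *Fezf2* (1.17, adjusted p = 0.019), *Pvalb* (1.44, adjusted p = 0.026) and *Sst* (0.61, adjusted p = 0.034) as higher in the cortex. *Lmo3* (-1.33, adjusted p = 0.0022), *Calb1* (-1.02, adjusted p = 0.0057) and some genes of the hippocampal fields were gained as higher in the hippocampus. With the correction alone *C1ql1*, *COX2*, *Cdhr1*, *Cebpd*, *Chrm2*, *Etv1*, *Fkbp5*, *Gria2*, *Grin2c*, *Homer3*, *Jun*, *Kcng1*, *Lbhd2*, *Nfia*, *Nfib*, *P2ry12*, *Pdyn*, *Ptpro*, *Slc2a5*, *Tspan18* and *Vip* did not pass, with adjusted p between 0.056 and 0.79. In that set *Fezf2*, *Pvalb* and *Sst* passed as higher in the cortex and *Calb1* and *Lmo3* as higher in the hippocampus. *Mir128-1*, *Mir1898*, *AF357426* and *Gm17750* have no GC value and were not corrected. Of the 25 immediate early genes, 7 were higher in the cortex and 0 in the hippocampus with the correction alone, against 14.8% and 7.53% of all genes. The counts were 14 and 0 when the library of mouse 34 was left out too, against 13.2% and 7.21%.

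The region contrast was then set beside the same contrast in the transplanted mice, which share no library with it. Of the GFP-BM REPOP hippocampus libraries, that of mouse 1 held *Cdhr1* at 40.2 FPKM and *C1ql2* at 3.32 FPKM, and that of mouse 4 *Drd1* at 46.9 FPKM and *C1ql2* at 0.875 FPKM, so these too went against their label, and values are given with and without them. Some cortex libraries also held such genes and were kept in the counts that follow. *Cdhr1* and *S100a5* were at 12.9 and 15.5 FPKM in the GFP-BM CON cortex library of mouse 18. The GFP-BM REPOP cortex library of mouse 1 held *S100a5* at 27.4 FPKM and *C1ql2* at 13.3 FPKM. In GFP-BM CON mice 2376 genes (17.2%) were higher in the cortex and 1375 (9.98%) higher in the hippocampus. In GFP-BM REPOP mice the counts were 2055 (14.9%) and 325 (2.36%), and 3109 (22.6%) and 2268 (16.5%) without the hippocampus libraries of mice 1 and 4. Of the 2073 genes higher in the WT CON cortex, 1277 were also called in GFP-BM CON mice with the same direction (61.6% of the WT CON and 53.7% of the GFP-BM CON list), and 1515 in GFP-BM REPOP mice (73.1% and 73.7%, or 1760, 84.9% and 56.6%, without the libraries of mice 1 and 4). Of the 1104 genes higher in the WT CON hippocampus, 418 were called in GFP-BM CON mice (37.9% and 30.4%) and 125 in GFP-BM REPOP mice (11.3% and 38.5%, or 467, 42.3% and 20.6%, without those libraries). The GC composition of the libraries separated the regions in the same direction in these mice, as given above.

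Calls in WT CON mice that also passed in both transplanted groups, and after correction without the library of mouse 34, numbered 533 in the cortex and 20 in the hippocampus, and 660 and 72 without the GFP-BM REPOP hippocampus libraries of mice 1 and 4. In the cortex the 533 included *Necab1*, *Gabrb2*, *Mef2c*, *Htr2a*, *Gria3*, *Gria4*, *Rorb* and *Plcb4*. *Mef2c* had log2 differences of 2.64 in GFP-BM CON and 1.93 in GFP-BM REPOP mice, and *Gabrb2* of 1.95 and 2.8. In the hippocampus *Amigo2* was among the 20, with -2.01 and -0.88. Further ones, chosen for naming after their values were seen, were *Cebpd* (Entrez 12609), a C/EBP transcription factor (-1.64 in WT CON, adjusted p = 0.046, -2.22 in GFP-BM CON and -1.82 in GFP-BM REPOP mice), *Mdga1* (Entrez 74762), an adhesion protein that blocks synapse formation (-1.83, adjusted p = 0.0093, -1.92 and -0.90), and *Notch2*, a receptor of neural stem cells (-1.46, adjusted p = 0.012, -1.26 and -0.84). *Cebpd* stood at 6.89, 2.34, 7.1 and 12.1 FPKM in the WT CON hippocampus and 1.61, 2.08 and 2.05 FPKM in the cortex, and *Mdga1* at 8.91, 18.4, 9.46 and 14.2 FPKM and 3.34, 3.04 and 3.75 FPKM. The difference between the contrasts was tested itself. Set against WT CON, the contrast of GFP-BM CON mice differed for 0 of 13783 genes (0.0%, limma-trend, 1821 at an unadjusted p under 0.05). That of GFP-BM REPOP mice differed for 6 (0.0435%, and 862 at an unadjusted p under 0.05). Without the 3 hippocampus libraries that went against their label these counts were 1 (*Pdyn*) and 0, with 1804 and 1195 genes at an unadjusted p under 0.05.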

How the data were processed

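Bulk RNA was sequenced as paired reads on NovaSeq and HiSeq instruments (which library ran on which was not given in the sources used here). Per the study's methods, the authors aligned reads with STAR, counted them per gene with featureCounts and computed FPKM with edgeR and limma, and the labels name mm10. The deposited FPKM values of 16389 genes in 34 libraries were used, and 0 columns of other series were present. The strand setting of the counting was not given. Whole reads were recovered from the steps of the FPKM values (100% of values within 0.01 of a whole number), giving 17085018 to 26010509 reads per library over all 34.

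Genes with at least 1 FPKM in at least 3 of the 7 WT CON libraries (13783) were tested as log2(FPKM + 0.1) with limma-trend (limma 3.58.1, R 4.3.3) and Benjamini-Hochberg adjustment. Fold changes are on that scale, which understates the change of low genes. The interaction between groups and regions was fitted over 23 libraries with the mouse as a random effect. The p-values measure the spread between these libraries, which holds differences in dissection as well as between mice. The script was tested on simulated data. The members and gene lists (32 lists, 573 of 587 genes in the file and 504 tested, with genes shared between some lists) were chosen with earlier results of these data known, and no test was run over a list. Named genes were the 12 with the largest difference in each direction among called genes without overlap and with a mean of at least 5 FPKM in the higher region, any list member, and the 3 most abundant genes of each region. All others are said to be chosen after their values were seen, which also holds for *R3hdm1*, the host gene of *Mir128-1*.

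For the correction, the deviation of each library from the gene means was regressed on natural splines (5 degrees of freedom each) of GC content and log2 length of the longest transcript, from GENCODE M21 (GRCm38), for the 12862 tested genes with a value (93.3%). The numbers in the labels were taken as those of the mice, so the same number in both regions marks the same animal. Deviations of the pairs of WT CON libraries from their group means correlated at 0.179, -0.307 and 0.111 for mice 34, 35 and 36. Alternatives were another pseudocount, filter, scaling and fit, the mouse as a block, the correction, voom on the recovered reads, and leaving out each library. Those that leave out the libraries against their label, with or without the correction, were added after the data were seen, as were voom and the list of olfactory bulb genes. The results of some genes are not reported here, though these genes stay in the counts.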

Additional observations from a re-analysis of the deposited data

Results flagged for a closer look

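Among the 4 WT CON hippocampus libraries, 156 levels of named genes and gene lists were examined on the log2 scale for a library standing far from the other 3 (Dixon's test at 95%), and 9 stood apart. Chance gives about 1 in 20, so the total of 9 is near what chance gives. Some of the levels, such as that of *Omp*, were chosen after the library of mouse 34 was seen to stand apart. That library accounted for 6 of the 9. It was far below the others for *C1ql2* (1.26 FPKM), *Lct* (0.158 FPKM) and *Rgs14* (19.1 FPKM), and far above them for *Omp* (45.5 FPKM), for the summed interneuron genes (2010.8 FPKM) and for the summed neurogenesis genes (437 FPKM). That of mouse 36 stood apart for *Grin1* (138 FPKM, above) and *Rspo1* (0.968 FPKM, below), and that of mouse 33 for *Mir128-1* (0.599 FPKM, the only value above 0, from 1 read).

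For 6 genes the region difference of GFP-BM REPOP mice was unlike that of WT CON (limma-trend interaction, adjusted p between 0.0092 and 0.046). Of these, 5 are described. It was smaller in GFP-BM REPOP mice by a log2 value of -1.03 for *Asap1*, -0.81 for *Ier5*, -1.23 for *Plxdc1* and -2.35 for *9130024F11Rik*, all higher in the WT CON cortex. For *Shisal1*, higher in the WT CON hippocampus, it differed by 1.25. Without the 3 hippocampus libraries against their label the differences were -0.93, -0.77, -1.15, -2.0 and 1.17 in the order named, and 0 of the 6 passed (adjusted p between 0.072 and 0.21).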

How the results depend on the processing

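The count of genes called between the WT CON regions (3177) moved by over 1.5 times under 2 of the settings that did not leave out a single library. It was 5370 with all 9 groups in one fit and 1137 with the mouse as a fixed replicate block. A random mouse block gave 2476 (correlation -0.188), quantile normalisation 4449 and voom on the recovered reads 4005. Leaving out each library in turn gave 14 to 4438 WT CON calls, with 1150 without the cortex library of mouse 35 and 2087 without the hippocampus library of mouse 36, 1913 to 4524 GFP-BM CON calls (3751 with all) and 1330 to 4172 GFP-BM REPOP calls (2380 with all). The highest GFP-BM REPOP count came without the hippocampus library of mouse 4, and without those of mice 1 and 4 it was 5377. Leaving out the 3 libraries against their label moved the genes with a changed region difference from 0 to 1 in GFP-BM CON and from 6 to 0 in GFP-BM REPOP mice. Blocks on the mouse gave 2973 and 1936 calls in these groups. The causes were not tested.

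For 121 named genes under 24 settings, 2436 of 2886 values kept their direction and side of the threshold, 335 lost the call (230 of them on leaving out a library), 67 gained one and 48 turned in sign. Under the GC and length correction these were *Bcl11b* (-0.04), *Bdnf* (-0.06), *COX1* (-0.45), *COX3* (-0.65), *Calb1* (-0.96), *Cux1* (0.00), *Etv1* (-0.14), *Grin1* (0.23), *Mbp* (0.20) and *Neurod6* (-0.02). Without the library of mouse 34 as well they were *Bdnf* (-0.62), *COX1* (-0.42), *COX3* (-0.62), *Calb1* (-1.02), *Grin1* (0.21), *Mbp* (0.10), *Neurod6* (-0.66) and *Ttr* (-0.69). Without the hippocampus libraries of mice 33 and 34 they were *Bcl11b* (-0.23), *Bdnf* (-0.34), *Calb1* (-0.12), *Fibcd1* (0.05), *Mbp* (0.19), *Neurod6* (-0.64), *Spink8* (0.22) and *Tle4* (-0.03). The fixed block turned *Bcl11b* (-0.15), *Mbp* (0.22) and *Spink8* (0.48). Quantile normalisation turned *COX1* (0.00), *COX3* (-0.54) and *Mbp* (0.07), median-ratio scaling *Mbp* (0.02), array quality weights *Mbp* (0.05) and *Spink8* (0.08), and voom *Pcp4* (-0.02). Leaving out single libraries spanned 0 for *Bcl11b* (-0.15 to 0.46), *Drd1* (-0.40 to 0.86), *Mbp* (-0.12 to 0.22), *Neurod6* (-0.12 to 1.00), *Pcp4* (-0.05 to 0.22), *Spink8* (-0.53 to 0.48) and *Ttr* (-0.73 to 2.11). Of these genes *Etv1* alone was called with all libraries.

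At 18881083 reads or more per WT CON library, genes listed at a few reads, such as *Mir128-1*, rest on counting error that the adjusted p does not show. With 3 and 4 libraries the exact permutation test of a single value cannot go below 0.057.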
